A study of Mus musculus with 48 samples.

Results

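The genes Ifit1, Ifit2, Ifit3, Ifi44, Mx1 and Mx2 encode proteins that cells make in response to interferon, and their transcripts were followed in mouse knee joints with and without a loading injury. The 6 genes were chosen by symbol from a panel of 248 endogenous genes, and all 6 were present. All 6 also passed the count filter that left 196 genes for testing, which asked for more than 20 counts in at least 12 of the 48 samples.

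Type I interferons bind a receptor on the cell surface and activate transcription factors that enter the nucleus and switch on a set of antiviral genes. The IFIT proteins bind viral RNA and interfere with its translation, the MX proteins are dynamin-like GTPases that trap viral components, and Ifi44 encodes an interferon-induced cytoplasmic protein. In synovium and cartilage of injured or arthritic joints these genes are commonly read as a sign of interferon signalling. C57BL/6 mice, like most inbred laboratory strains, carry defective Mx1 and Mx2 alleles, so counts of these 2 genes report transcripts and not functional protein.

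Samples came from knee joints of male C57BL/6 mice labelled 3 months old. Healthy joints (n = 12) received no loading. In the other 3 groups knees of mice aged 8 weeks were compressed for 500 cycles at 9 N, 5 times a week for 4 weeks, which models post-traumatic osteoarthritis without surgery. These loaded joints were left untreated (n = 12), or received polymer nanoparticles coupled to an antibody against collagen II, the main collagen of cartilage, and carrying either a control siRNA (siNEG, n = 12) or an siRNA against Mmp13, a collagenase (siMMP13, n = 12). No group received nanoparticles without loading. RNA was extracted from synovium together with cartilage and the bone below it, so each value is a mixture of tissues, and fewer cells of a type cannot be told apart from less RNA per cell. The panel held 0 of 4 cartilage markers looked for (Col2a1, Acan, Sox9 and Comp) and no Mmp13 probe was analysed here, so neither the cartilage part nor the knockdown was checked.

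Counts come from the nCounter system, which counts barcoded probes bound to single RNA molecules. Levels below are normalized counts, that is counts divided by a sample factor from 6 reference genes of the panel. They are comparable between samples for 1 gene but not between genes, because each probe captures its target with its own efficiency. Total gene counts ran from 36415 to 302377 per sample, and the negative control probes averaged 5.63 to 8.47 counts by group. There were 4 samples that stood apart from the rest in the balance of their reference genes, by a rule set after the data were seen: siMMP13 replicates 7, 8 and 11 and healthy replicate 2. The fits are given with and without these 4 samples below.

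Promoter sequences were available from RefSeq (GRCm38.p6) for 4 of the 6 genes. Windows ran from 250 bases before to 50 after a transcription start, and those of 3 genes are shown. The windows of Ifit1 and Ifit3 hold matches to the binding motif of interferon-activated transcription factors. The window of Ifi44 holds only the same repeats with 1 base fewer between them, which is not taken here as that motif. The interferon-stimulated response element was searched on both strands as GAAANNGAAA. Capitals mark each match, which in all 3 windows lies on the strand opposite to the one printed.
Ifit1, chr19:34640639-34640938, plus strand: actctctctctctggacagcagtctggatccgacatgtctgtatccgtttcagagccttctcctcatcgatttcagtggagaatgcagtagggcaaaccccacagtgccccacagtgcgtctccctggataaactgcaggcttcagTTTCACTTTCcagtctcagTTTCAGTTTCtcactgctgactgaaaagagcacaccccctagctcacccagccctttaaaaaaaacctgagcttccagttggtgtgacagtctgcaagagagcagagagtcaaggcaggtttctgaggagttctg
Ifit3, chr19:34583279-34583578, plus strand: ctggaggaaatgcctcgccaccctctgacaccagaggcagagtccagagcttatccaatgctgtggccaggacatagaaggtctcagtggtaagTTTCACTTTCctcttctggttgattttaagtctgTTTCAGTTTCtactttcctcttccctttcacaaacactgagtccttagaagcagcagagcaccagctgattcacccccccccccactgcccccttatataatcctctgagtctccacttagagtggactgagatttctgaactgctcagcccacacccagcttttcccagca
Ifi44, chr3:151749861-151750160, minus strand: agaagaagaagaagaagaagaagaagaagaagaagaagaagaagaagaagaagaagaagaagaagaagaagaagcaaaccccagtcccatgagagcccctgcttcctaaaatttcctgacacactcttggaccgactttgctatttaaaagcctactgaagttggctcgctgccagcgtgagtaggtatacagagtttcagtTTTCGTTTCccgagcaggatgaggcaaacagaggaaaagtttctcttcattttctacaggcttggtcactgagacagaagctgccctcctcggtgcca
The Ifit1 window held 2 matches, at 104 to 95 and 85 to 76 bases before the start. The Ifit3 window also held 2, at 156 to 147 and 122 to 113 bases before the start, and the 4 matches read TTTCACTTTC and TTTCAGTTTC on the printed strand, once each in both genes. The capitals in Ifi44 mark the repeats with 1 base fewer between them, GAAANGAAA, at 48 to 40 bases before the start. This form was searched only after the sequences had been seen. Neither form was found in the 2 windows of Ifit2, which does not show that the gene lacks the element, since sequence outside these windows was not searched. Among 32851 mouse promoter windows of this length, 3.443% held GAAANNGAAA, 3.166% held GAAANGAAA and 6.274% held at least one of them. The windows for Mx1 and Mx2 were not analysed here. A match in a window describes the sequence and does not show binding.

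In joints that were loaded and left untreated, 5 of the 6 genes rose. Ifit1, Ifit2, Ifit3, Ifi44 and Mx2 were higher in loaded untreated than in healthy joints, and in each of these 5 genes all 12 loaded samples lay above the healthy median. Mx1 did not pass the test. The 5 rises are to be read against a background in which 31.6% of the 196 genes tested were called higher, and 46.4% in either direction. The median log2 fold change was 1.88 over the 6 genes and 0.15 over all 196.

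The 3 IFIT genes lie close together on mouse chromosome 19, in the RefSeq order Ifit2, Ifit3, Ifit1bl1, Ifit3b, Ifit1bl2, Cnn2-ps and Ifit1. Ifit1, whose product binds RNA ends that lack the marks of host RNA, had a lowest, median and highest normalized count of 16.1, 46.2 and 267 in healthy joints and of 103, 314 and 530 in loaded untreated joints. The 2 groups overlapped, but 7 of 12 loaded samples lay above every healthy one. Its level was 4.16-fold higher after loading (log2 fold change 2.06 ± 0.38 SE, edgeR adjusted p = 6.3e-05). In 10 of 12 healthy joints the Ifit1 count exceeded the limit set from the negative controls, so the lowest healthy values lie at background. Ifit2, an IFIT protein linked to cell death as well as antiviral defence, ran from 69.3 through a median of 126 to 650 in healthy joints and from 286 through 486 to 1015 in loaded ones. Of the healthy joints only replicate 5 lay within the loaded range, above all but the 3 highest loaded samples. Ifit2 was 3.23-fold higher (1.69 ± 0.30, edgeR adjusted p = 0.00020).

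Ifit3, which in human cells stabilises IFIT1 on RNA, had a lowest, median and highest value of 107, 259 and 1593 in healthy joints and of 1085, 1667 and 3053 in loaded untreated joints. Apart from healthy replicate 5, no healthy joint exceeded 612, which is below every loaded sample. The rise was 4.68-fold (2.23 ± 0.35, edgeR adjusted p = 4.2e-06). Ifit3b is a closely related copy next to it, and which of the pair the probe reads is not given in the sources used here, so the value may hold both transcripts.

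Ifi44 rose by about as much as Ifit3, with 2.51 against 2.61 on the log2 scale in limma. Its lowest, median and highest values were 13.4, 42.4 and 189 in healthy joints and 150, 312 and 489 in loaded untreated joints. In 9 of 12 loaded samples it lay above every healthy sample. The rise was 4.79-fold (2.26 ± 0.33, edgeR adjusted p = 5.4e-06), and 11 of 12 healthy joints exceeded the negative-control limit.

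Both MX genes lie on chromosome 16 and are annotated as transcribed pseudogenes in the C57BL/6J reference. They differed in how cleanly the groups separated. Mx2, which in mice encodes a cytoplasmic MX protein where the allele is intact, ran from 19.6 through a median of 27.4 to 53.2 in healthy joints and from 48.2 through 73.3 to 126 in loaded untreated joints. Only 1 of 12 loaded samples lay within the healthy range. Its rise was smaller than those of the IFIT genes, at 2.38-fold, but it had the smallest error (1.25 ± 0.17, edgeR adjusted p = 3.0e-05). In healthy joints Mx2 exceeded the negative-control limit in 10 of 12 samples, so its fold change is measured from a level near background.

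Mx1, which encodes a nuclear MX protein in mice with an intact allele, had a lowest, median and highest value of 34.3, 94.8 and 171 in healthy joints and of 75.3, 124 and 317 in loaded untreated joints. The groups overlapped over most of their range, with 10 of 12 loaded samples above the healthy median and 4 above the highest healthy sample. The difference of 1.66-fold (0.73 ± 0.29) had an unadjusted p of 0.037 and an edgeR adjusted p of 0.070. It passed without healthy replicate 5, the highest healthy sample for Mx1, at 0.85 and an edgeR adjusted p of 0.038. Without the 4 samples that stood apart, of which 1 is healthy, the log2 fold changes were 2.05 for Ifit1, 1.66 for Ifit2, 2.23 for Ifit3, 2.26 for Ifi44, 0.65 for Mx1 and 1.24 for Mx2, and Mx1 was again the one gene not called.

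**Figure D1:**
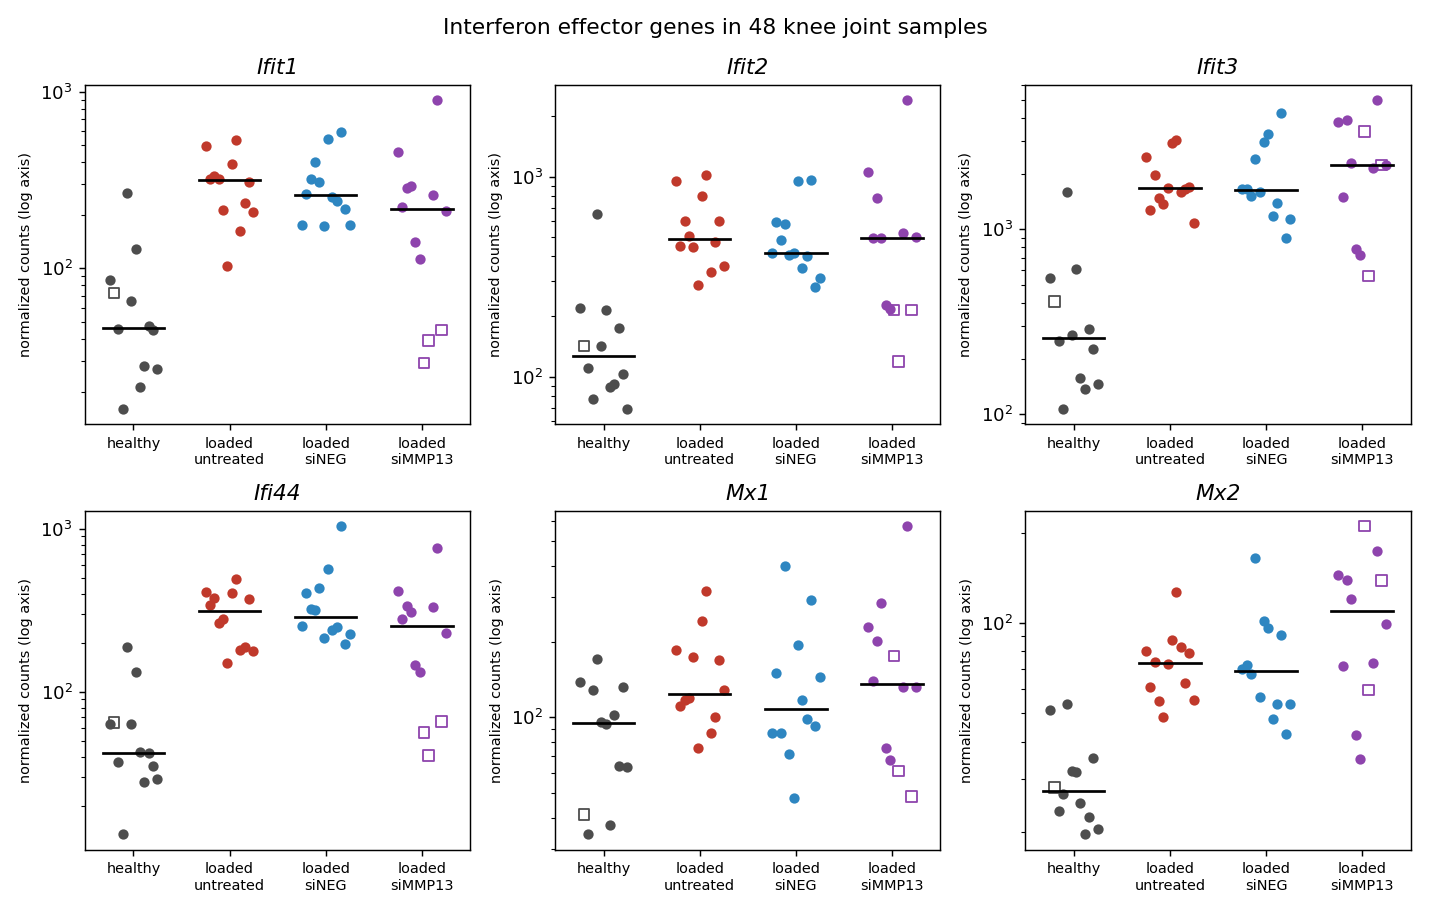
Normalized counts (log axis) of the 6 genes in each of the 48 joints, by group, with black lines at the group medians and open squares for the 4 samples whose reference genes stood apart. Ifit3 runs from 107 to 1593 in healthy and from 1085 to 3053 in loaded untreated joints, while the Mx1 groups overlap over most of their range.

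The genes did not rise by equal amounts. This was tested on the log2 ratio of 2 genes within the same sample, with 1 added to each normalized count, for all 15 pairs of the 6 genes. The sample's scaling cancels in such a ratio except at low counts, where the added 1 matters. In 11 of the 15 pairs the log2 ratio differed between loaded untreated and healthy joints (two-sided permutation test, 100000 resamples, Benjamini-Hochberg adjusted over 15 pairs). No difference passed among Ifit1, Ifit3 and Ifi44, although Ifit1 with Ifit3 passed at a pseudocount of 10 (-0.40, adjusted permutation p = 0.017), while Ifit2 rose by less than each of them, and Mx2 by less than all 3 IFIT genes and Ifi44.

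The log2 ratio of Ifit2 to Ifit3 fell by 0.71 ± 0.14 (SE, adjusted permutation p = 7.5e-05), from -1.03 ± 0.35 in healthy to -1.75 ± 0.34 in loaded untreated joints (SD, n = 12 each). Ifit1 gained 0.49 ± 0.14 over Ifit2 (adjusted permutation p = 0.0031), and the ratio of Ifit2 to Ifi44 fell by 0.61 ± 0.16 (adjusted permutation p = 0.0013). Of the 3 IFIT genes on chromosome 19, Ifit2 therefore changed by less than the other two.

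Against Mx2, Ifit3 gained 1.35 ± 0.24 (adjusted permutation p = 7.5e-05), Ifi44 1.25 ± 0.27 (0.00047), Ifit1 1.13 ± 0.30 (0.0026) and Ifit2 0.64 ± 0.22 (0.013). Against Mx1 the gains were larger, from 1.13 ± 0.27 for Ifit2 to 1.84 ± 0.35 for Ifit3. Because Mx2 was near background in healthy joints, the test was repeated after subtraction of the negative-control mean. Ifit2 over Mx2 then no longer passed (0.34, adjusted permutation p = 0.14), and Mx1 with Mx2 did (-0.76, adjusted permutation p = 0.014). The pairs that did not pass without this subtraction and with 1 added were Ifit1 with Ifit3 (-0.22 ± 0.17, adjusted permutation p = 0.24), Ifit1 with Ifi44 (-0.12 ± 0.14, 0.42), Ifit3 with Ifi44 (0.10 ± 0.17, 0.56) and Mx1 with Mx2 (-0.48 ± 0.23, 0.063).

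**Figure D2:**
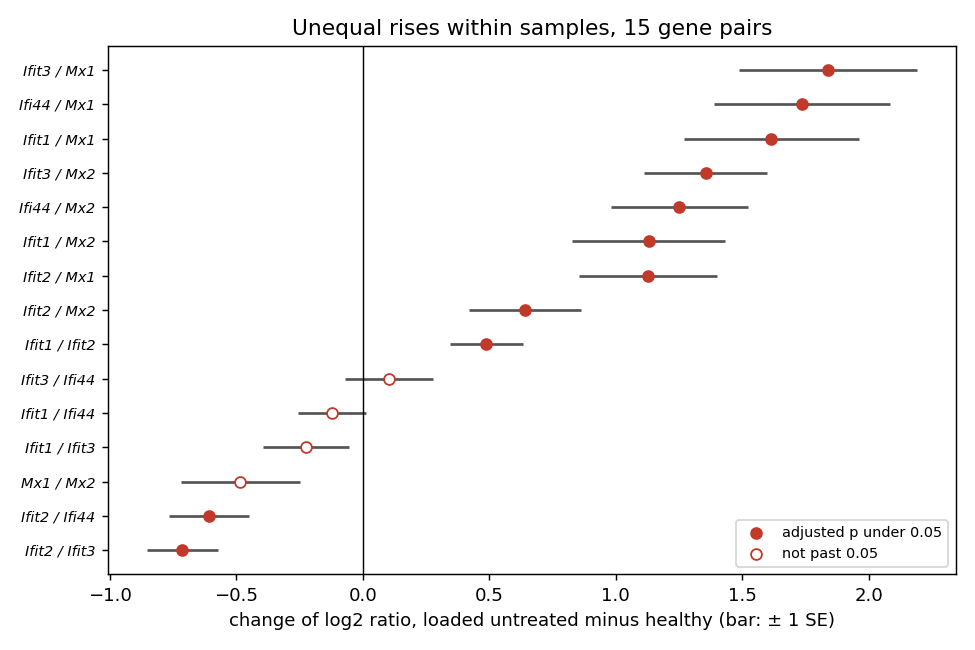
Change in the log2 ratio of 2 genes within a sample, loaded untreated minus healthy joints, for 15 gene pairs, with bars of 1 SE and filled points for an adjusted permutation p under 0.05. The ratio of Ifit3 to Mx1 changed most, by 1.84, and 4 pairs that did not pass are drawn open.

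Loaded joints that had received nanoparticles also had higher levels of these genes than healthy joints. In siNEG joints 5 of the 6 genes rose, where 37.8% of 196 genes were called higher and 50% in either direction. In siMMP13 joints all 6 rose, where 34.7% were called higher and 49.5% in either direction. The median log2 fold change of the 6 genes was 1.80 in each, against 0.20 and 0.14 over all genes. These comparisons use the same 12 healthy joints as the one above, so they are not independent of it.

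In siNEG joints Ifi44 ran from 197 through a median of 286 to 1040. All 12 siNEG samples lay above the highest healthy joint, which only 3.06% of the genes tested did in this comparison. Ifi44 was 5.85-fold higher than in healthy joints (2.55 ± 0.35, edgeR adjusted p = 5.6e-07). Ifit3 in siNEG joints ran from 903 through 1625 to 4246, a 5.02-fold rise (2.33 ± 0.37, edgeR adjusted p = 1.3e-06), and Ifit1 from 174 through 260 to 589, a 4.19-fold rise (2.07 ± 0.37, edgeR adjusted p = 5.5e-05). Ifit2 was 2.91-fold higher (1.54 ± 0.30, edgeR adjusted p = 0.00054) and Mx2 2.43-fold (1.28 ± 0.21, edgeR adjusted p = 2.4e-05), and both had all 12 samples above the healthy median. Mx1 did not pass, with 7 of 12 siNEG samples above the healthy median (0.67 ± 0.34, edgeR adjusted p = 0.092). Without the samples that stood apart the changes were 0.59 for Mx1 and between 1.27 and 2.54 for the other genes, with 5 called.

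In siMMP13 joints Ifit3 and Mx2, like Ifit2 and Mx1, showed their largest edgeR differences from healthy joints. Ifit3 ran from 560.4 through a median of 2220.0 to 4986 and was 6.00-fold higher (2.58 ± 0.44, edgeR adjusted p = 2.5e-07). Mx2 ran from 34.96 through 109 to 210.1, with 10 of 12 samples above every healthy joint, and was 3.50-fold higher (1.81 ± 0.27, edgeR adjusted p = 1.4e-07). Ifit3 and Mx2 each had all 12 samples above the healthy median.

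Ifit1 and Ifi44 were less uniform in this group. Ifit1 ran from 29.2 through 216 to 892 and Ifi44 from 40.8 through 255 to 768, and for both the 3 lowest samples were the siMMP13 joints whose reference genes stood apart. The fitted rises were 3.45-fold for Ifit1 (1.79 ± 0.54, edgeR adjusted p = 0.00030, 9 of 12 samples above the healthy median) and 4.13-fold for Ifi44 (2.04 ± 0.47, edgeR adjusted p = 1.5e-05, 11 of 12). Ifit2 was 3.45-fold higher (1.79 ± 0.43, edgeR adjusted p = 8.7e-05), running from 119 through 493 to 2402.

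Mx1 passed in this comparison only, at 1.93-fold (0.95 ± 0.37, edgeR adjusted p = 0.018), with 8 of 12 samples above the healthy median. The call was lost without siMMP13 replicate 10, whose 575 is the highest Mx1 value of the group (0.61, edgeR adjusted p = 0.11). With all samples it was also lost under total-count scaling, limma at either pseudocount and a replicate block (adjusted p from 0.053 to 0.069). Without the 4 samples that stood apart, all 6 genes were still called in siMMP13 joints, with log2 fold changes of 2.13 for Ifit1, 2.06 for Ifit2, 2.65 for Ifit3, 2.37 for Ifi44, 1.08 for Mx1 and 1.67 for Mx2.

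**Figure D3:**
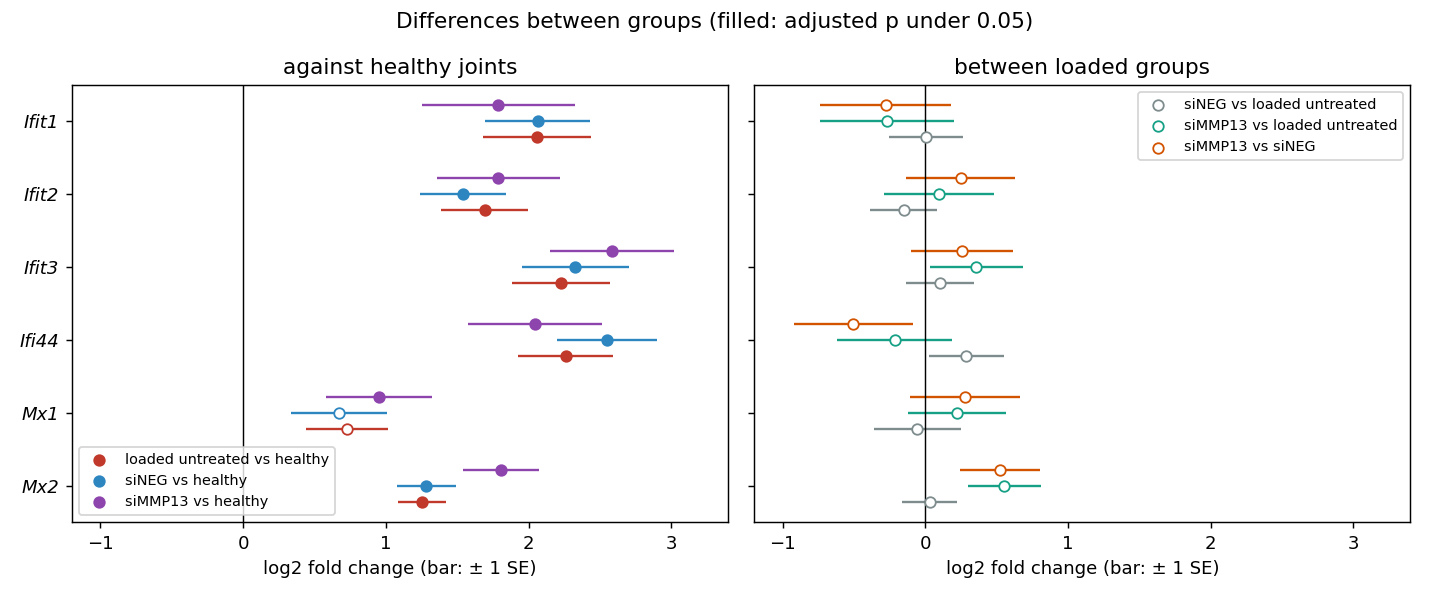
Log2 fold change of each gene from edgeR, for the 3 loaded groups against healthy joints (left) and for the loaded groups against each other (right). Bars are 1 SE taken from log2 normalized counts and not from the edgeR fit, and points are filled where the edgeR adjusted p is under 0.05. Against healthy joints Mx1 passed in siMMP13 only, and no gene passed between loaded groups.

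Neither nanoparticle treatment moved any of the 6 genes past the test within loaded joints. This comparison asks whether the carrier (siNEG against untreated) or the Mmp13 siRNA (siMMP13 against siNEG) changed the interferon effectors that loading had raised. Of all 196 genes, 1.53% were called in siNEG against untreated, 3.57% in siMMP13 against untreated and 6.12% in siMMP13 against siNEG. With edgeR, 0 of the 6 genes were called in each, while 0, 1 and 1 of them had an unadjusted p under 0.05, as had 16, 33 and 40 of all 196 genes.

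Between siNEG and untreated joints no gene had an unadjusted p under 0.05. The fitted log2 fold changes ran from -0.15 for Ifit2 to 0.29 for Ifi44 (edgeR adjusted p from 0.92 to 0.99). The 95% intervals from limma, on log2 values, reached from -0.83 for Mx1 to 0.96 for Ifi44.

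Mx2 was the gene with an unadjusted p under 0.05 in siMMP13 joints. Its level was 1.47-fold that of untreated joints (0.55 ± 0.26, unadjusted p = 0.018, edgeR adjusted p = 0.15, 8 of 12 samples above the untreated median). Against siNEG it was 1.44-fold (0.52 ± 0.28, unadjusted p = 0.027, edgeR adjusted p = 0.19, 9 of 12 above the siNEG median). The limma intervals of -0.05 to 0.87 and of -0.04 to 0.88 both include 0, and the highest Mx2 value of the group, 210.1, belongs to siMMP13 replicate 7, which stood apart.

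Ifit1 and Ifi44 pointed the other way in siMMP13 joints, without passing. Against siNEG, Ifi44 was at -0.50 ± 0.42 (edgeR adjusted p = 0.38) and Ifit1 at -0.28 ± 0.46 (edgeR adjusted p = 0.70), and against untreated joints they were at -0.22 ± 0.40 and -0.27 ± 0.47. Limma, which averages log2 values, gave larger differences against siNEG, of -0.79 (95% interval -1.53 to -0.05, adjusted p = 0.17) for Ifi44 and -0.78 (-1.61 to 0.04, adjusted p = 0.20) for Ifit1. Without the 4 samples that stood apart, the edgeR values were -0.17 for Ifi44 and 0.07 for Ifit1 against siNEG. The remaining genes lay between 0.10 and 0.36 in siMMP13 against untreated joints, with edgeR adjusted p from 0.63 to 0.94.

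The 6 genes varied more between joints of the same group than most genes did. The median SD of log2 values was 0.94 over the 6 genes and 0.39 over all 196 in healthy joints, 0.58 and 0.29 in untreated, 0.64 and 0.35 in siNEG, and 1.12 and 0.51 in siMMP13 joints. Single samples were highest for several genes at once: healthy replicate 5 had the highest value of its group for all 6 genes, and so had untreated replicate 8. In siMMP13 joints replicate 10 was highest for 5 genes and second for Mx2. In siNEG joints replicate 10 was highest for 4 genes, and its total count of 44738 was the lowest of its group.

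Within groups the genes rose and fell together. Of 60 correlations between 2 genes across the 12 joints of a group, 41 passed a permutation test (100000 resamples, Benjamini-Hochberg adjusted over 60), with 11 of 15 pairs in healthy and 10 of 15 in each of the other groups. Without the 2 samples farthest from the median 22 passed. The median Pearson r of the 15 pairs was 0.77 in healthy, 0.78 in untreated, 0.66 in siNEG and 0.76 in siMMP13 joints. Both genes of a pair share the sample's scaling factor, which adds to r. Over all 48 samples after subtraction of group means the median r was 0.68 between these genes (0.34 to 0.95) and 0.15 between all pairs of the other 190 genes, given here as a description.

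Ifit1 and Ifit3 were nearly proportional in healthy joints, with r = 0.98 and rho = 0.97 (adjusted permutation p = 0.0001 for both), and with r = 0.96 without the 2 joints farthest from the median. For the same pair the values were lower in untreated joints (r = 0.60, rho = 0.64, adjusted permutation p = 0.058 and 0.049) and siNEG joints (r = 0.64, rho = 0.49, adjusted permutation p = 0.039 and 0.15). Without 2 joints it was 0.84 in untreated and 0.15 in siNEG joints, so these values rest on few samples.

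Ifit1 and Ifi44, which lie on different chromosomes, stayed close in every group, with r of 0.94 in healthy, 0.91 in untreated, 0.87 in siNEG and 0.99 in siMMP13 joints, and rho of 0.88, 0.94, 0.85 and 0.97. All 4 passed by both measures (adjusted permutation p of at most 0.0030), and r was 0.69 to 0.99 without 2 joints. Mx1 followed the others least in healthy joints, where its r was 0.35 with Ifit1, 0.43 with Ifit2, 0.32 with Ifit3 and 0.18 with Ifi44 (adjusted permutation p from 0.19 to 0.58). After loading without treatment it correlated with Ifit1 at 0.78, with Ifit2 at 0.86 and with Ifi44 at 0.81, but with Ifit3 at 0.66 (rho 0.48, adjusted permutation p of rho = 0.16), and the last was 0.18 without 2 joints. The difference between groups in these correlations was not tested.

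**Figure D4:**
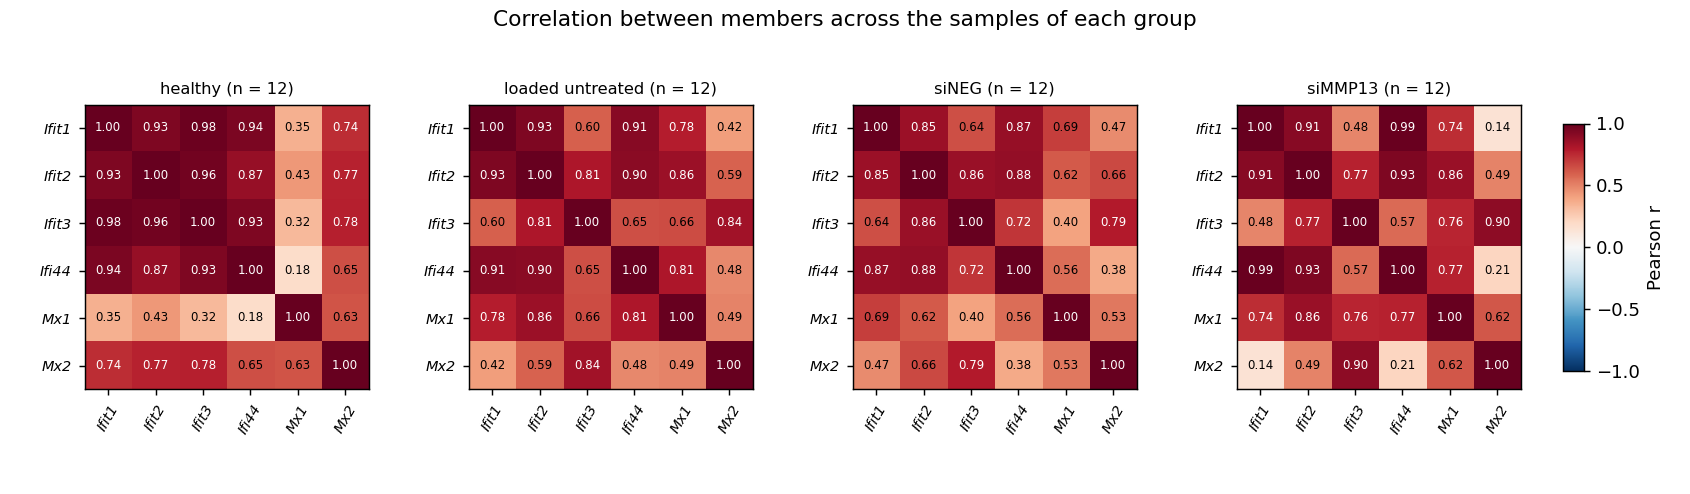
Pearson r between log2 values of each pair of the 6 genes across the 12 joints of each group. Mx1 stands apart in healthy joints, with r of 0.18 to 0.43 to the IFIT genes and Ifi44, and Mx2 stands apart from Ifit1 in siMMP13 joints, at 0.14.

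In siMMP13 joints Ifit1 followed Ifi44 and Ifit3 followed Mx2 (r = 0.90, rho = 0.92, adjusted permutation p of r = 0.00047), while r was 0.48 between Ifit1 and Ifit3 and 0.14 between Ifit1 and Mx2. This split came with replicates 7 and 11, which are among the 3 siMMP13 joints that stood apart. The total gene counts of those 3 joints, 61094, 62095 and 89728, were the 3 lowest of the group. In replicate 7 the normalized counts were 29.2 for Ifit1 and 56.4 for Ifi44 but 3372 for Ifit3 and 210.1 for Mx2. In replicate 11 they were 44.8 and 66.0 against 2222 and 138. In replicate 8, which also stood apart, the same genes were low together, at 39.1 and 40.8 with 560.4 and 59.4.

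The count of Ifit3 was 116 times that of Ifit1 in replicate 7 and 49.6 times in replicate 11, whereas it lay between 3.96 and 16.98 times in all other samples, replicate 8 with 14.3 times among them. Across the 9 remaining siMMP13 joints all 15 pairs passed, with r of 0.90 for Ifit1 with Ifit3 (rho 0.90, exact permutation test, adjusted p = 0.0010) and 0.89 for Ifit1 with Mx2 (rho 0.93, exact permutation test, adjusted p = 0.0010). Leaving these 3 joints out was decided after the data were seen.

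Some ratios between the genes also followed the balance of 2 reference genes, Tubb5, a tubulin, and Cltc, the clathrin heavy chain, in the same sample. This relation was looked for after the data were seen, over 15 gene pairs in 4 groups. It did not hold for all pairs. Ifit1 over Ifi44 did not pass in healthy, untreated or siNEG joints (adjusted permutation p of r = 0.31, 0.19 and 0.62). For Ifit2 over Ifit3, r was 0.64 in healthy but -0.87 in untreated joints. The log2 ratio of Tubb5 to Cltc counts averaged -0.42 ± 0.50 in healthy, -0.64 ± 0.65 in untreated, -0.49 ± 0.54 in siNEG and -0.01 ± 1.36 in siMMP13 joints (SD, n = 12 each), with its highest values of 2.66, 2.25 and 1.44 in siMMP13 replicates 7, 11 and 8.

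The log2 ratio of Ifi44 to Mx2 was lower where Tubb5 was high relative to Cltc in each group. In healthy joints r was -0.84 and rho -0.82 (n = 12, adjusted permutation p = 0.0029 and 0.011), and r was -0.69 without the 2 farthest joints. In untreated joints r was -0.86 and rho -0.57 (adjusted permutation p = 0.0047 and 0.11), and r was -0.46 without 2. In siNEG joints r was -0.73 and rho -0.78 (adjusted permutation p = 0.018 and 0.015), and r was -0.55 without 2. In the 9 siMMP13 joints that did not stand apart r was -0.84 and rho -0.97 (exact permutation test, adjusted p of r = 0.0080), and r was -0.87 without 2.

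For Ifit1 over Mx2 the r values were -0.95 in healthy, -0.92 in untreated, -0.77 in siNEG and -0.87 in the same 9 siMMP13 joints. Without 2 joints they were -0.90, -0.43, -0.55 and -0.62. Among all pairs, only Ifi44 over Mx2 and Ifit1 over Mx2 passed in those 9 siMMP13 joints (exact permutation test, adjusted p of r = 0.0080 and 0.028). Ifit2 over Mx2, with r of -0.83, did not pass there (exact permutation test, adjusted p = 0.058). The pairs that passed there are therefore not typical of the others. For Ifit1 over Ifit3 r was -0.25 in healthy joints (rho -0.26, adjusted permutation p = 0.52). It was -0.81 in untreated joints (adjusted permutation p = 0.013) and -0.69 in siNEG joints (adjusted permutation p = 0.032), where it rested on 2 samples each (r = -0.02 and -0.24 without them). In siMMP13 joints it was -0.92 over all 12 (rho -0.81, adjusted permutation p of r = 0.00080) and -0.55 over the 9 that did not stand apart (exact permutation test, adjusted p = 0.31). The normalized levels themselves, pooled over 48 samples after subtraction of group means, had an r with the Tubb5 to Cltc ratio of -0.82 for Ifit1, -0.78 for Ifi44, -0.64 for Ifit2, -0.40 for Mx1, -0.23 for Ifit3 and 0.16 for Mx2. Over all 196 genes the median was -0.39, with 82 genes below -0.5 and 25 above 0.5. What moves this ratio was not tested. With the ratio as a covariate the number of the 6 genes called against healthy joints stayed at 5, 5 and 6.

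**Figure D5:**
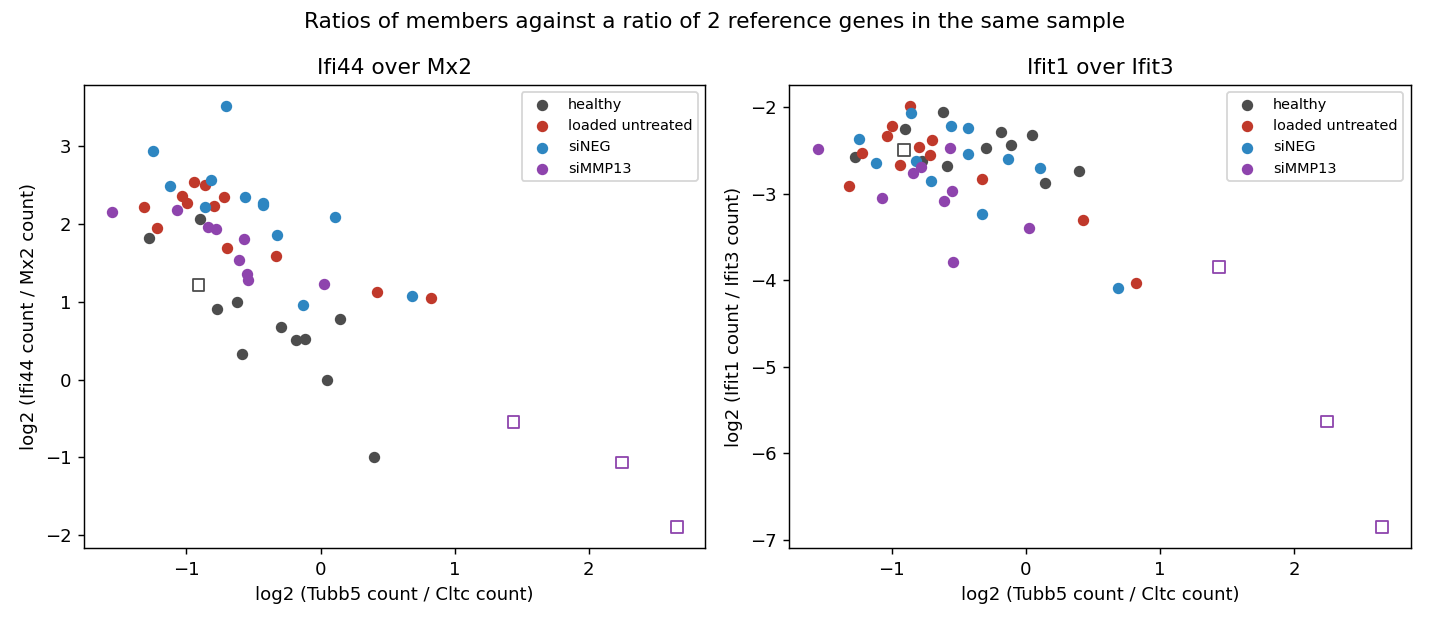
Log2 ratio of Ifi44 to Mx2 (left) and of Ifit1 to Ifit3 (right) in each of the 48 joints against the log2 ratio of Tubb5 to Cltc counts, coloured by group, with open squares for the 4 samples that stood apart. The 3 siMMP13 squares lie at Tubb5 to Cltc values of 1.44, 2.25 and 2.66 for replicates 8, 11 and 7, and replicates 7 and 11 have the lowest ratios of both plots.

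The genes whose variation between joints was most like that of the 6 were other interferon targets and monocyte chemokines. Likeness was the mean Pearson r with the 6 genes over 48 samples after subtraction of group means, and is a description. It was 0.81 for Oasl1 and 0.77 for Oas1a, both of the oligoadenylate synthetase family, 0.76 for Ccl2 and 0.76 for Ccl7, which attract monocytes, 0.76 for Irf7, the transcription factor that amplifies interferon responses, and 0.72 for Cxcl10, an interferon-induced chemokine. Irf7 was close to Ifit1 (0.96) and Ifi44 (0.94) and less so to Mx2 (0.39), whereas Cxcl10 was closest to Ifit3 (0.92) and Mx2 (0.85).

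Other parts of the interferon pathway were read from lists written with earlier results of these data known. The ligand genes Ifna1, Ifnb1 and Ifng did not pass the filter, and their counts exceeded the negative-control limit in 8, 6 and 10 of 48 samples, with highest raw counts of 28, 32 and 27, so no interferon transcript was measured well enough to test. Among the interferon transcription factors, Irf7 was 3.82-fold higher in loaded untreated than in healthy joints (1.93 ± 0.30, edgeR adjusted p = 5.2e-06) and Stat2 1.87-fold (0.90 ± 0.12, edgeR adjusted p = 1.6e-06). Irf1 did not pass (0.28 ± 0.12, edgeR adjusted p = 0.20).

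Against the 31.6% of all genes called higher, 3 of 4 other interferon-induced effectors rose: Oas2 by 1.98 ± 0.24, Oas1a by 1.81 ± 0.22 and Oasl1 by 1.79 ± 0.25 on the log2 scale, while Ifi27l2a was at 0.47 ± 0.36 (edgeR adjusted p = 0.31). For Oas2 and Oas1a, of the family that makes the activator of the RNA-degrading enzyme RNase L, all 12 loaded joints lay above every healthy one, as did 2.55% of the genes tested. All 3 interferon-induced chemokines tested rose, Cxcl10 by 2.07 ± 0.40, Ccl5 by 2.04 ± 0.29 and Cxcl9 by 1.19 ± 0.24. Of 6 innate immune sensors and adaptors tested, not all of them for nucleic acids, 1 rose, Nod1 by 0.39 ± 0.09 (edgeR adjusted p = 0.00031). Myd88 (0.39 ± 0.13, edgeR adjusted p = 0.050) and Tlr9 (0.71 ± 0.24, edgeR adjusted p = 0.069), which belong to nucleic acid sensing, did not pass. Between loaded groups 0 genes of these lists were called by edgeR, with at most 1 gene of a list at an unadjusted p under 0.05.

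Markers of cell types present in a joint also differed between loaded untreated and healthy joints. Of 9 macrophage and monocyte genes 3 rose (Arg1, C3ar1 and Trem2) and 4 fell (Retnla, Mrc1, Tyrobp and Cd163), where 31.6% of all genes tested rose and 14.8% fell, and their summed normalized count was 5677 to 12523 in healthy and 7995 to 11852 in untreated joints. In siMMP13 joints that sum reached from 7776 to 23780. Such sums weigh probes with high counts most and do not measure cell number. Among these 9 genes the highest raw count was 14467 for Tyrobp and 34 for Nos2. Of 4 granulocyte genes 3 fell, with sums of 2259 to 6311 in healthy and 1965 to 5160 in untreated joints, and of 5 lymphocyte and antigen presentation genes 4 fell, with sums of 924.7 to 2709 and 1075 to 1767.

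Of 3 genes listed for skeletal muscle (Myl2, Fxyd2 and Ppp1r12b, not all specific to it) 1 fell, where 14.8% of all genes tested fell. Their sums were 142 to 1042 in healthy and 145 to 861 in untreated joints, and in siMMP13 joints these reached 2443. No marker probe was at 0 in any sample, since the lowest value in the files is 1. The part of cell content in the rises of the 6 genes was not tested beyond 1 value: with log2 Myl2, a muscle marker, as a covariate, the number of the 6 genes called against healthy joints remained 5, 5 and 6.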

How the data were processed

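RNA was measured in 48 samples, 4 groups of 12, taken from the titles and treatment labels; nothing there says whether 12 samples are 12 animals, and the spread behind every p-value may therefore be technical. The deposited values are whole-number counts per probe, and no normalization by the authors is recorded in the sources used here. Per the labels' protocols they come from the nCounter mouse inflammation panel. The 268 probes comprised 248 endogenous genes, 6 reference genes, 6 positive and 8 negative controls. The lowest value was 1.

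Each sample was divided by the geometric mean of its 6 reference genes (Tubb5, Pgk1, Hprt, Gusb, Gapdh and Cltc). The 196 genes above 20 counts in 12 or more samples were tested with the quasi-likelihood test of edgeR 4.0.16 (R 4.3.3), fitted to all groups. Benjamini-Hochberg adjustment ran over the 196 genes, and a call needed an adjusted p under 0.05. SEs come from the variances of log2(normalized count + 1) in the 2 groups. Those set beside edgeR fold changes are therefore not errors of the edgeR estimate itself. Intervals are from limma 3.58.1 on the same log2 values. The negative-control limit is their mean plus 2 SD in the same sample. A sample stood apart when the log2 levels of its reference genes lay over 1.5 from the median profile (Euclidean distance). Sequences are from RefSeq, matched by symbol, and files carry no genome build, so no other coordinates are given.

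The 6 genes, the lists and the tests were chosen with earlier results of these data known. Genes named besides the 6 were up to 4 of each pathway list with the smallest p and the 6 of most alike variation. One of these genes is not reported here. The pipeline was tested on simulated data. Alternatives were TMM, DESeq2 1.42.0 (size factors and Wald test), total-count and 3-gene scaling, filters, background subtraction, limma, a replicate block, fits of 2 groups alone, Myl2 as a covariate and leaving out each sample. Those added after the data were seen left out 4 samples or took the ratio of Tubb5 to Cltc as a covariate.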

Additional observations from a re-analysis of the deposited data

How the results depend on the processing

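Counts of the 6 genes called against healthy joints stayed between 5 and 6 under 15 alternatives and when each sample was left out, and 264 of 270 single values kept direction and call. The other 6 were all Mx1. In siMMP13 joints it lost its call under total-count scaling (0.61, edgeR adjusted p = 0.069), under limma with a pseudocount of 1 (0.76, adjusted p = 0.053) or 10 (0.71, adjusted p = 0.054) and with a replicate block (0.75, adjusted p = 0.058), and in untreated joints it gained one under limma (0.78, adjusted p = 0.049) and in a fit of only the groups compared (0.73, adjusted p = 0.027). With each sample left out in turn, Mx1 ranged from 0.58 to 0.85 in untreated and from 0.61 to 1.07 in siMMP13 joints. TMM scaling moved the median of all genes in untreated joints from 0.15 to -0.05 in siNEG joints from 0.20 to -0.05 and in siMMP13 joints from 0.14 to -0.0059, and the 6 genes stayed higher. Same-numbered samples did not deviate together (median r from -0.01 to 0.08 between groups), so the numbers are not taken to pair samples, and the replicate block changed no other call. Between loaded groups 0 genes were called under any alternative, and 27 of 270 values near 0 changed sign. For siNEG against untreated these were Ifit1 (-0.040 with TMM, -0.028 with DESeq2 size factors, -0.044 with total counts, -0.073 with 3-gene scaling, -0.067 with a replicate block, -0.094 with Myl2), Mx2 (-0.021, -0.011, -0.034 and -0.049 with the same scalings, -0.0091 and -0.0034 with limma at a pseudocount of 1 and 10, -0.0096 with a replicate block), Mx1 (0.064 with Myl2, 0.058 with the ratio of Tubb5 to Cltc) and Ifit2 (0.028 with that ratio). For siMMP13 against untreated they were Ifit2 (-0.11 with total counts, -0.30 and -0.29 with limma, -0.15 with a replicate block), Mx1 (-0.012 with limma), Ifit1 (0.081) and Ifi44 (0.12) without the 4 samples that stood apart, and Ifi44 (0.046) with the ratio. For siMMP13 against siNEG they were Ifit2 (-0.16 and -0.15 with limma) and Ifit1 (0.075 without the 4 samples). With each sample left out, the values that changed sign ranged from -0.11 to 0.11 (Ifit1), -0.053 to 0.19 (Ifit3), -0.29 to 0.094 (Mx1) and -0.12 to 0.13 (Mx2) for siNEG against untreated, from -0.36 to 0.20 (Ifit2) and -0.11 to 0.37 (Mx1) for siMMP13 against untreated, and from -0.21 to 0.36 (Ifit2) and -0.057 to 0.52 (Mx1) for siMMP13 against siNEG. Of the 60 correlations within groups, 22 passed without the 2 farthest samples (10 in place of 12 samples) and 30 under TMM scaling, against 41. The 15 ratio tests gave 11 to 12, with Ifit1 and Ifit3 gained at a pseudocount of 10, and with background subtraction Mx1 and Mx2 gained and Ifit2 and Mx2 lost. The causes of these changes were not tested. Low counts of Ifit1, Ifi44 and Mx2 in healthy joints limit the size of their fold changes.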

Other observations

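Healthy replicate 5 held the highest normalized count of its group for each of the 6 genes, at 267 for Ifit1, 650 for Ifit2, 1593 for Ifit3, 189 for Ifi44, 171 for Mx1 and 53.2 for Mx2. All 6 values lay within the range of the loaded untreated joints, and its reference genes did not stand apart (distance 0.94 against the limit of 1.5). Healthy replicate 4 was lowest for Ifit1, Ifit3 and Ifi44, with raw counts of 6, 40 and 5, yet its Mx1 of 129 ranked 4 of 12.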
